A study of Mus musculus with 4 samples.

Results

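Dense clusters of CCGG sites that lie far from any protein-coding gene were described in 4 samples of mouse left ventricle. CCGG is the recognition motif of a pair of restriction enzymes, and its inner cytosine can be methylated. A site was a member if it lay on an autosome, was listed in the deposited data of all 4 samples, had at least 5 listed sites (itself included) within 500 bp on either side, and lay outside every protein-coding gene and more than 5 kb from the nearest one. Of 967498 autosomal sites listed in all 4 samples, 11976 were this dense, and 1174 of these were members. Most of the other dense sites lay within 1 kb of a gene end (5619) or inside a gene body (4919). The rule used position and listing, and no signal value directly. Listing differed between samples, and whether it depends on signal was not tested.

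The study profiled genomic DNA from the heart of C57BL/6 mice aged 8 weeks, 3 days after an induced myocardial infarction. Each of the 4 groups, non-infarcted and infarcted left ventricle of wild-type and of Neil3-/- mice, had 1 sample. Neil3 is a DNA glycosylase that removes oxidised bases from DNA, and the null mice lack it. All 4 samples are labelled as taken after infarction, the non-infarcted ones included. The sources used here do not say whether both tissues came from the same hearts or whether mice were pooled.

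DNA methylation is usually low at CpG-rich promoters and high across the rest of the genome. Dense CpG stretches away from annotated genes, often called orphan CpG islands, are known to include starts of non-coding transcripts, enhancers of developmental genes and silenced repeats. In the heart, 5-hydroxymethylcytosine (5hmC), an oxidation product of 5-methylcytosine (5mC), is comparatively abundant. Each sample was read as 3 libraries. HpaII cuts CCGG only when the site is unmodified. MspI cuts whether the inner cytosine is modified or not. In the BGT library the DNA was first glucosylated, which protects 5hmC sites from MspI, so it reads unmodified and 5mC sites.

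The unmodified index of a cluster is its summed HpaII signal as a percent of its summed MspI signal, and the BGT index is the summed BGT signal as a percent of MspI. The libraries of a sample had similar signal totals, and the sources used here do not give their normalization. Both indices are therefore relative, and neither is a share of molecules. An index of 100% is near the average of the genome, and values above 100% occur. A low unmodified index marks a site rich in 5mC or 5hmC, and a low BGT index marks one rich in 5hmC, both relative to the other sites of the same sample. Since each group has 1 sample, differences between groups cannot be set against replicates, and the spread over the 4 samples holds genotype, infarct and animal together.

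Sequence was at hand for the promoters of non-coding genes that fall in these regions. Of the RefSeq promoter windows searched on GRCm38.p6, the assembly of the mm10 build, 19 overlapped a region with member sites, all of non-coding genes. An autosome that holds members was left out of this search, so 19 is not the count over all regions. Each runs from 250 bases before to 50 bases after the start of a gene. The 4 below are shown because they span the range from AT-rich to CpG-rich sequence among the well-filled clusters searched. Letters are 5′ to 3′ on the strand of the gene, and capitals mark CCGG sites listed in all 4 samples.
Gm31096 (chr3:85122456-85122755, minus strand): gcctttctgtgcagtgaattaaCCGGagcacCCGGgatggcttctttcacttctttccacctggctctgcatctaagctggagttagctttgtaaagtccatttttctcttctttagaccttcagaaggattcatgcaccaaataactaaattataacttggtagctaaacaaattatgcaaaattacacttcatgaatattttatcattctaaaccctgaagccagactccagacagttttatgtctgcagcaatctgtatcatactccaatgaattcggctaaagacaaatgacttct
Gm20052 (chr5:37893522-37893821, plus strand): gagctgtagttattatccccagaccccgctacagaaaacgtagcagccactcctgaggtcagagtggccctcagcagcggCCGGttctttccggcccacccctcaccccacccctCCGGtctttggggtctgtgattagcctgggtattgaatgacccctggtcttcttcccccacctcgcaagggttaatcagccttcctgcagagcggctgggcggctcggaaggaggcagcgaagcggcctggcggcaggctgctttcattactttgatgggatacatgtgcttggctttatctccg
5430416N02Rik (chr5:100429486-100429785, minus strand): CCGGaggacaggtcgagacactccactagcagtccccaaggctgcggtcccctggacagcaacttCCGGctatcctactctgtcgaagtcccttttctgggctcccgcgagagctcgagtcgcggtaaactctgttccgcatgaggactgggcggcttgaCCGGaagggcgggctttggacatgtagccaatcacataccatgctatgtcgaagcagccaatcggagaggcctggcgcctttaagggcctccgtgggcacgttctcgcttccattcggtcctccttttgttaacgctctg
2310034G01Rik (chr19:46348939-46349238, minus strand): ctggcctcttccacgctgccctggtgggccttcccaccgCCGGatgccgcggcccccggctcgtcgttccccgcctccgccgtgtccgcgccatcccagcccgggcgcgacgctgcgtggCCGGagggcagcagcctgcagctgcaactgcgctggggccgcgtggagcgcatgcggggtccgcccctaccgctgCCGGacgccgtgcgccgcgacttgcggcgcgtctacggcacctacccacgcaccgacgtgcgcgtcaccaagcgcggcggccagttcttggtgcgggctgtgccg

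The Gm31096 promoter held 3 CpG at 38.7% GC, and its observed-to-expected CpG ratio was 0.28. The Gm20052 promoter held 14 CpG at 59.3% GC (ratio 0.53), and the 5430416N02Rik promoter 22 CpG at 59.3% GC (ratio 0.83). The 2310034G01Rik promoter held 46 CpG at 76.3% GC, with a ratio of 1.06 that 3.3% of all 31365 promoters reached. The median promoter had 53.0% GC and a ratio of 0.39. The most AT-rich of the 4 belongs to the cluster nearest Fbxw7, which was among the 4 lowest by mean unmodified index, and the most CpG-rich belongs to the cluster nearest Mfsd13a, which held 7 member sites.

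These sequences also show what density means in these data. The 2310034G01Rik promoter has 5 CCGG motifs, of which 3 were listed in all 4 samples. Over all promoters, the share of CCGG motifs (both strands read alike, since the motif is its own reverse complement) listed in all 4 samples was 81.69% where a promoter had 1, 34.14% where it had 3, 18.9% where it had 5 and 10.85% where it had 6 or more. A dense site is thus one with many listed neighbours, and genomic stretches with more CCGG motifs can count as less dense here. The members are a listed subset of the dense CCGG stretches far from genes.

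Members were rare among sites far from genes. Of 396599 shared sites more than 5 kb outside a protein-coding gene, 0.296% were dense, against 7.565% of sites at gene ends and 1.0997% of sites in gene bodies. Most members sat just at the density limit: 975 had 5 sites in their window, 189 had 6 and 10 had 7. The distance to the nearest gene ranged from 5.013 to 685.3 kb with a median of 32.52 kb, and 251 members lay more than 100 kb away. Non-coding genes or pseudogenes lay within 1 kb of 419 members (35.69%), against 20.94% of all far sites. By chromosome, the dense share of far sites ran from 0.161% on chromosome 14 to 0.533% on chromosome 11 and 0.513% on chromosome 5.

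Members were chained into 530 clusters where neighbours lay at most 500 bp apart. Of these, 241 held 1 member site and 67 held at least 5, up to 7. The 67 clusters held 358 of the members (30.49%) and spanned 223 to 854 bp, with a median of 491 bp. They are described by their member sites alone and are called clusters. All 530 are described by the listed sites within 500 bp of a member, and are called windows, so that every member is covered. All 67 clusters passed a minimum mean MspI signal of 10 per site.

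Library quality touches these values in 3 ways. Autosomal sites listed per sample ran from 1025392 to 1043755, and signal summed over shared sites from 32762614 to 42346248 per library. The number of tags behind a signal is unknown. The BGT library stood apart in 1 sample, non-infarcted wild type: at the 1174 members its log2 signal correlated with MspI of the same sample at r = 0.556, against 0.763 to 0.794 in the other samples. Every BGT value averaged over the 4 samples, and every BGT comparison with non-infarcted wild-type tissue, includes this library. Neil3 held 15 to 19 listed sites per sample and no member, and 0 members lay in the blocks of missing sites on chromosomes 1 and 8. The data hold no expression, so genotype and tissue labels were not checked by transcripts.

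Clusters far from genes were less open to HpaII than clusters at gene ends and close in level to those in gene bodies. The median unmodified index of the 67 clusters was 126% in non-infarcted and 134% in infarcted wild-type tissue, and 129% and 134% in the same tissues of Neil3-null mice. The 464 clusters at gene ends had medians of 191%, 190%, 187% and 184% in the same order. The difference was -57.3 ± 5.95 percentage points (SD, n = 4 samples) and was lower in 4 of 4 samples (exact two-sided sign-flip permutation test, p = 0.13, adjusted p = 0.167, over 8 such comparisons). That is the smallest p that 4 samples allow.

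The 302 clusters in gene bodies had medians between 130% and 131%. Far clusters differed from them by 0.303 ± 3.47 percentage points (SD, n = 4 samples; exact sign-flip permutation test, p = 1.0), with 2 samples lower and 2 higher. Over windows, the far set was 4.72 ± 3.15 percentage points above gene bodies in 4 of 4 samples (SD, n = 4; exact test, p = 0.13) and 72.3 ± 2.28 below gene ends.

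The BGT index differed less between places. Far clusters had medians of 111%, 114%, 116% and 118%, and gene ends 134%, 119%, 133% and 126%, in the same order of samples. The difference was -13.2 ± 8.42 percentage points (SD, n = 4 samples; exact sign-flip test, p = 0.13). It was widest, at -23.3, in the wild-type non-infarcted sample whose BGT library stood apart, and -16.8, -5.15 and -7.44 in the others.

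**Figure D1:**
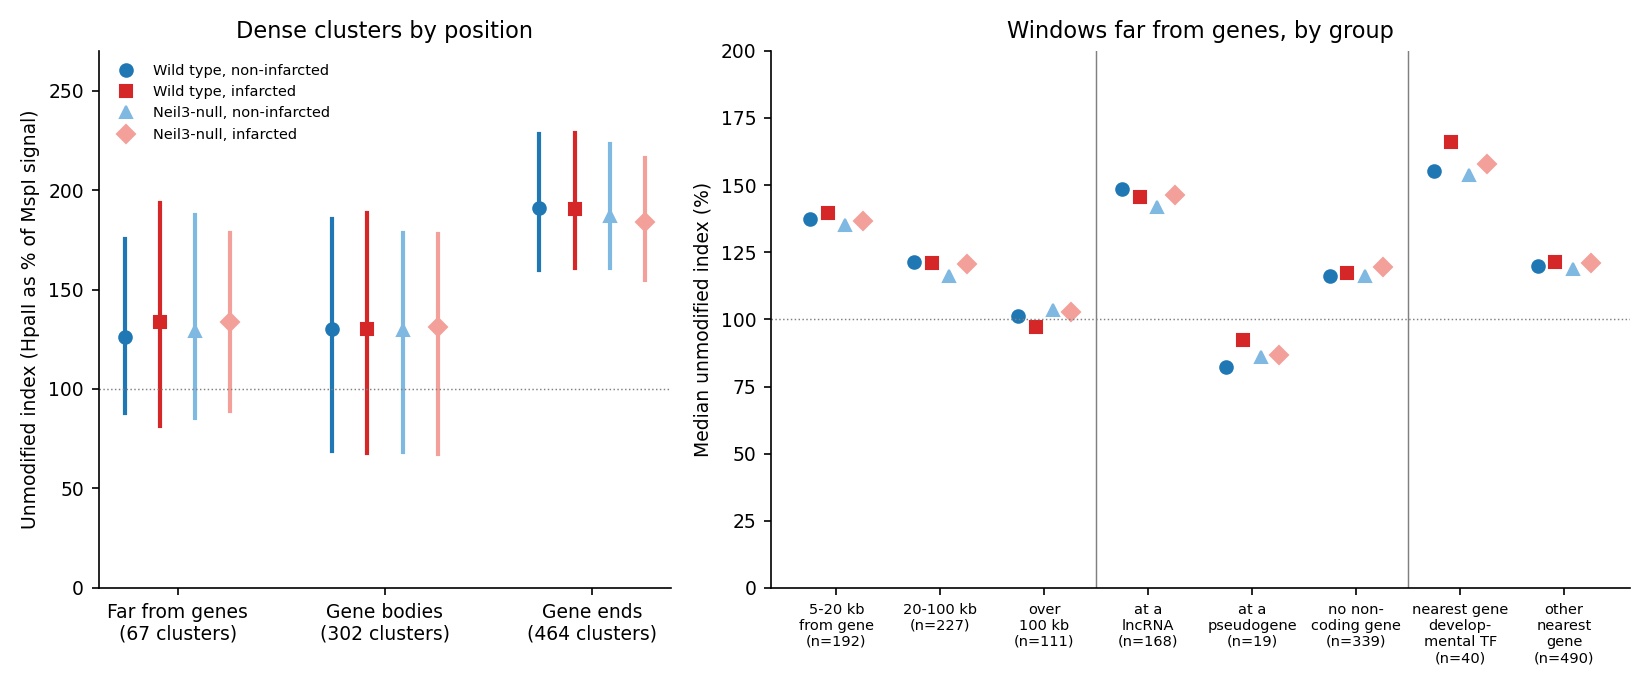
Unmodified index (percent) of dense clusters by position (left; points are medians, bars the quartiles over clusters, 1 point per sample) and medians over windows far from genes by distance, overlapping non-coding gene and nearest gene (right; TF, transcription factor gene). Gene ends stood above the 2 other classes in every sample, and medians of far windows ran from 97.3% to 103% beyond 100 kb and from 135% to 140% at 5 to 20 kb.

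Among sites far from genes, the unmodified index rose with the number of listed neighbours. Sites alone in their window had 86.9% to 91.0% over the 4 samples, sites with 2 had 105% to 110%, with 3 had 112% to 115% and with 4 had 119% to 121%. Members had 124% to 125%. Mean HpaII signal per site in wild-type non-infarcted tissue was 33.0 for lone sites and 72.5 for members, while MspI signal was 38.0 and 58.4. Both libraries were higher at members, HpaII more so.

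At gene ends the index was 148% to 160% even for lone sites. It was 187% to 192% at 3 sites and 175% to 180% at 5 or more, so it had no steady rise there. Just outside the density limit, far sites with 4 listed sites had 119% to 121%, and just inside, those with 5 had 122% to 123%. Just outside the distance limit, 264 dense sites between 1 and 5 kb from a gene had 145% to 153%, and the 206 members at 5 to 10 kb had 136% to 141%.

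**Figure D2:**
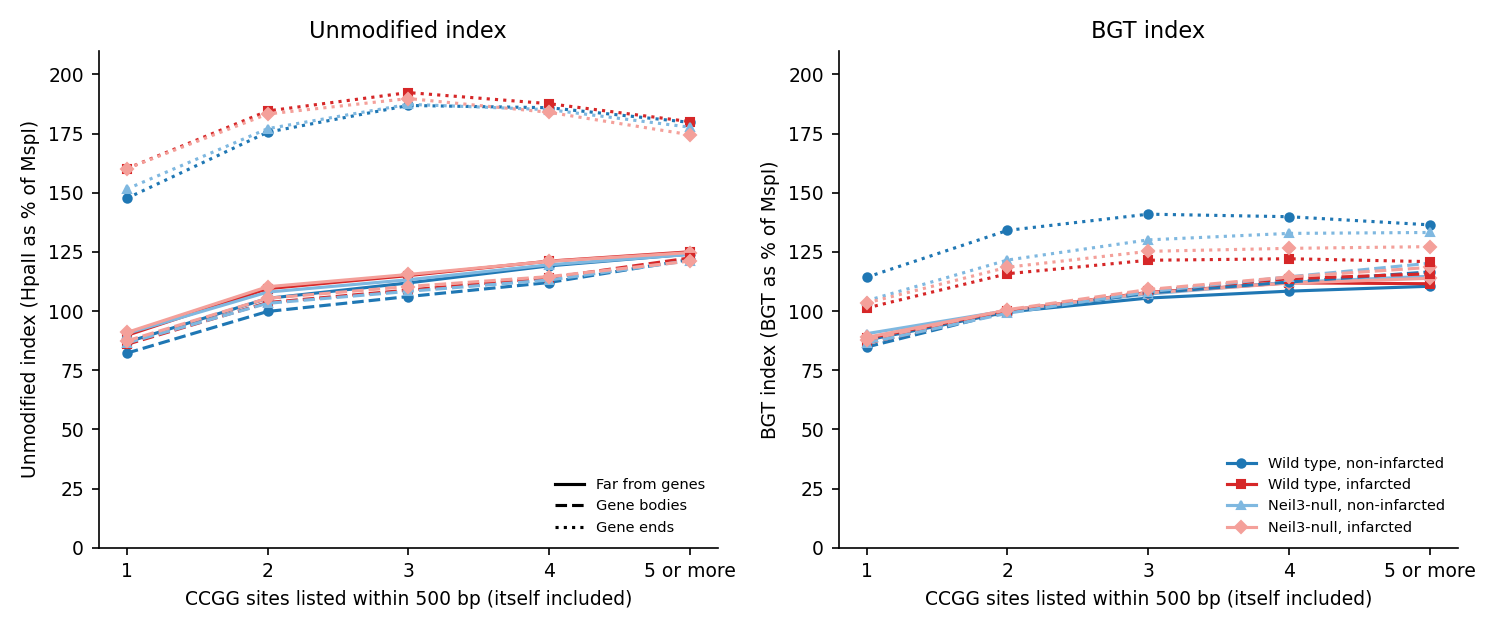
Unmodified index (left) and BGT index (right), in percent of MspI signal, of all shared sites by the number of listed CCGG sites within 500 bp, for 3 positions (line style) and 4 samples (colour). Far sites rose from 86.9% to 91.0% when alone to 124% to 125% with 5 or more neighbours counted, and stayed below gene ends at every density.

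Position within the far set went with the index. Windows 5 to 20 kb from a gene (192) had median unmodified indices of 135% to 140%, those at 20 to 100 kb (227) of 116% to 121%, and those beyond 100 kb (111) of 97.3% to 103%. Windows beyond 100 kb were lower than those within 20 kb by 36.1 ± 4.63 percentage points in 4 of 4 samples (SD, n = 4; exact sign-flip test, p = 0.13, adjusted p = 0.15 over 12 comparisons of groups). In the 67 clusters the same difference was 46.3 ± 14.8 points.

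Windows inside or within 1 kb of a long non-coding RNA (lncRNA) gene (168) had medians of 142% to 149%, against 116% to 119% for the 339 with no non-coding gene nearby, a difference of 28.2 ± 2.92 points in 4 of 4 samples (SD, n = 4; exact sign-flip test, p = 0.13, adjusted p = 0.15). The 19 windows at a pseudogene had 82.4% to 92.3%. In the BGT index lncRNA windows differed from those without a non-coding gene by 4.34, 0.281, 3.31 and 3.65 points, the first in the sample whose BGT library stood apart.

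Of the 168 lncRNA windows, 18 were at an lncRNA with a name other than a clone or model number, and their median index was 183% to 195% over the 4 samples. Of these, 16 were above 100% in all 4 samples, and 13 above 150%, against 56.2% and 29.4% of all 530 windows. Among all 168 lncRNA windows, 66 were above 150% in all 4 samples. Most of the 18 windows held 1 member site, so their values rest largely on listed sites that are not members. These 18 were singled out after their values were seen and have no test.

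Malat1, an abundant nuclear lncRNA, had a window of 6 listed sites (chr19:5803139-5804042) with unmodified indices of 185% and 201% in non-infarcted and infarcted wild-type tissue and 194% and 207% in the same tissues of null mice. This order of samples holds for every run of 4 values below. Neat1, the scaffold of paraspeckles and a neighbour of Malat1, had 176%, 197%, 182% and 173%. Miat, an lncRNA first named for its link to myocardial infarction, had 167%, 168%, 159% and 156%. All 3 were well above the median window in every sample.

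The opposite-strand transcripts among the 18 covered a wide range. Foxo6os had 373%, 372%, 340% and 381%, Zmiz1os1 325%, 253%, 283% and 302%, and Otx2os1 277%, 351%, 305% and 312%, while Wt1os had 133%, 140%, 129% and 154% and Banf2os 101%, 102%, 95.8% and 112%. Trp53cor1, a p53-induced lncRNA, had 123%, 110%, 114% and 138%. Banf2os and Mir1a-1hg, described below, were the 2 of the 18 with a sample under 100%.

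Imprinted genes carry parent-specific methylation, and 5 windows had an imprinted nearest gene. At the Dlk1-Dio3 domain, the window in Meg3, its maternally expressed lncRNA, had 175%, 167%, 146% and 174%, and the window in Rian, a snoRNA host of the same domain, had 231%, 186%, 210% and 209%. Near Dio3, which encodes the deiodinase that inactivates thyroid hormone, 1 window had 313%, 321%, 295% and 289% and the other, in Gm40576, 80.5%, 85.2%, 104% and 86.4%. The window near Rasgrf1, a Ras exchange factor gene imprinted from its upstream region, had 92.2%, 73.6%, 76.9% and 98.4%. The 5 windows thus covered a wide range of values.

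Windows whose nearest gene encodes a developmental transcription factor had a higher index. The 40 windows, nearest to 31 such genes, had medians of 154% to 166%, against 119% to 121% for the other 490, a difference of 37.9 ± 4.7 points in 4 of 4 samples (SD, n = 4; exact sign-flip test, p = 0.13, adjusted p = 0.15). Their BGT index was higher by 20.4 points in non-infarcted wild-type tissue, whose BGT library stood apart, and by 11.2, 11.5 and 10.04 points in the other samples. Of the 40, 19 were above 150% in all 4 samples and 2 were below 50%. Of the other 490, 137 were above 150% and 33 below 50% in all 4 samples.

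Mnx1, a motor neuron homeobox gene, was nearest to a window at 430%, 485%, 425% and 417%, and Pax2, a kidney and eye regulator, to one at 354%, 297%, 335% and 310%. Tbx3, which patterns the conduction system of the heart, had 4 windows at 61 to 415 kb. The farthest had 40.7%, 41.9%, 37.9% and 43.9%, and the one at 106 kb had 208%, 234%, 243% and 195%, so windows nearest to 1 gene lay at both ends of the range. The low window nearest Prox1, a regulator of lymphatic and cardiac development, lay 219 kb from it. Only 1 window had a gene of the cardiomyocyte list nearest, Myl3, a myosin light chain of the ventricle, at 163%, 148%, 161% and 166%.

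The 67 clusters differed far more among themselves than between samples. The SD of the log2 unmodified index between clusters was 0.871, and the median SD of a cluster over the 4 samples was 0.122. Across the 67 clusters, samples correlated at r = 0.942 to 0.969, which describes shared positions and not replicates. For BGT the 2 SDs were 0.343 and 0.153 and r was 0.709 to 0.861. The 2 indices, which share the MspI denominator, correlated at r = 0.62 over clusters. Of the 67 clusters, 4 were below 50% in all 4 samples (near Arhgef26, Camta1, Prox1 and Fam43a) and 20 were above 150%. Fam43a was named after its values were seen. Per sample, 7.46% to 11.9% of far clusters were below 50%, against 16.6% to 18.9% in gene bodies and 1.94% to 2.37% at gene ends. The shares above 150% were 35.8% to 43.3%, 37.1% to 41.7% and 77.8% to 82.8% in the same order of places.

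**Figure D3:**
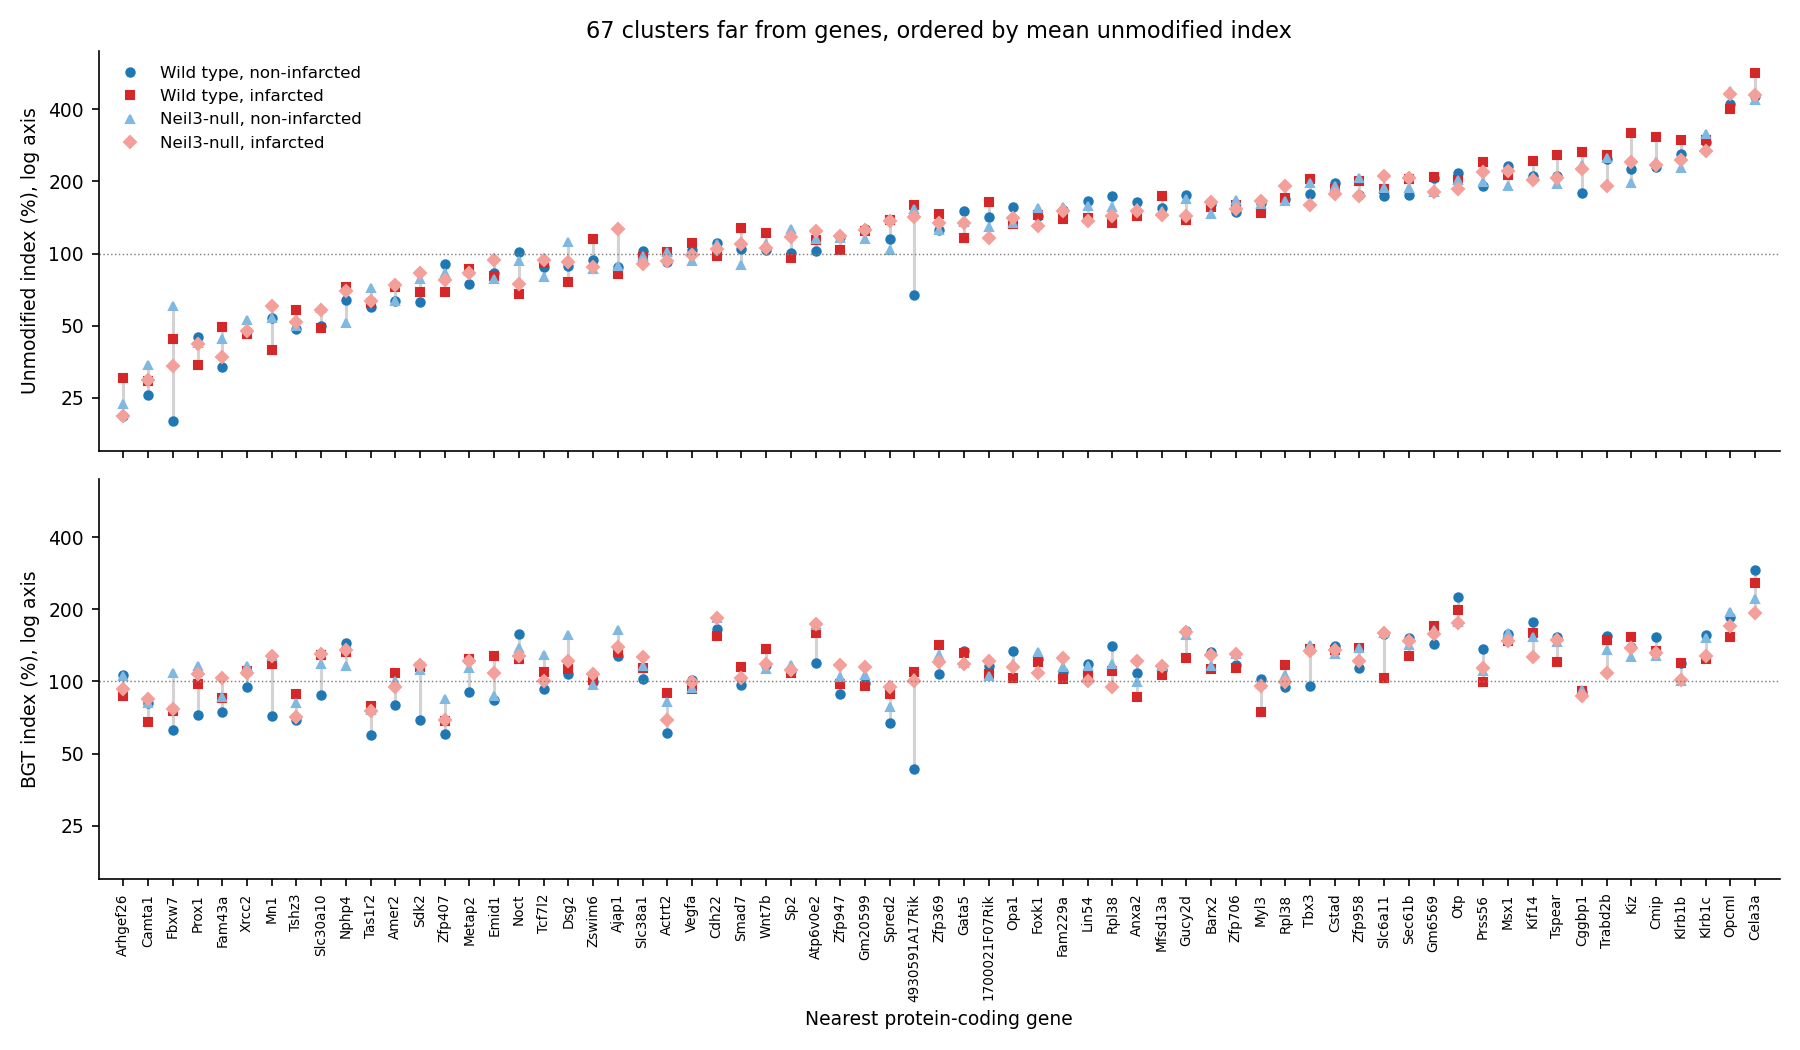
Unmodified index (top) and BGT index (bottom), in percent on a log axis, of the 67 clusters with at least 5 member sites, ordered by mean unmodified index and named by the nearest protein-coding gene, with 1 point per sample and a grey line over their range. The order was close to the same in the 4 samples, from about 21.0% to 30.2% near Arhgef26 to 437% to 564% near Cela3a, and the clusters near Fbxw7 and 4930591A17Rik had the widest ranges.

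The highest cluster lay in the lncRNA gene Gm52681, 13.1 kb from Cela3a, which encodes a pancreatic elastase-like protease (chr4:137387943-137388428, 5 sites). Its unmodified index was 452%, 564%, 437% and 458%, and its BGT index, also the highest, was 292%, 258%, 221% and 193%. Summed HpaII signal was 469.5, 437.7, 469.7 and 518.6 against MspI signals of 103.9, 77.7, 107.5 and 113.2. HpaII was thus high and MspI low in all 4 samples.

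The cluster 61.3 kb from Opcml, a neuronal adhesion gene, had 418%, 400%, 476% and 460% (chr9:27728963-27729443). A pair of clusters in the natural killer receptor region followed, at 293%, 296%, 315% and 267% near Klrb1c and 260%, 296%, 227% and 246% near Klrb1b, both on chromosome 6 (chr6:128764021-128764465 and chr6:128802896-128803358). Both held 6 sites. By mean these were the 4 highest clusters. The ranges over samples overlapped between Cela3a and Opcml and between Klrb1c and Klrb1b, and did not overlap between Opcml and Klrb1c.

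The lowest cluster lay 179 kb from Arhgef26, with the nearest non-coding gene 89504 bp away (chr3:62159018-62159456). Its unmodified index was 21.0%, 30.2%, 23.7% and 21.1%, while its BGT index was 107%, 87.1%, 105% and 93.2%. HpaII signal was 69.5 to 82.7 against an MspI signal of 274 to 346, and all 5 sites were below 100% in every sample. Relative to MspI, this cluster was thus low in HpaII and near the genome average in BGT.

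Camta1, a calmodulin-binding transcription activator, was nearest to a cluster at 25.8%, 29.5%, 34.3% and 29.6% (chr4:151893787-151894385), with BGT indices of 81.0%, 67.6%, 81.2% and 84.7%. One of its 5 sites ran against the others, at 548% to 2839%, where MspI signal was low. The cluster near Prox1 had 44.9%, 34.5%, 42.4% and 42.1% (chr1:190390180-190390637). Its BGT index was 72.8% in wild-type non-infarcted tissue and 97.5% to 116% in the others, so the sample with the unusual BGT library was the low one.

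Lowest in BGT were the clusters near Zfp407, a zinc finger gene (60.4%, 68.3%, 84.5% and 69.3%), near Tas1r2, a sweet taste receptor subunit gene (59.6%, 79.0%, 76.1% and 75.3%), near Actrt2, an actin-related gene (61.0%, 89.9%, 81.9% and 69.3%) and near Tshz3, a zinc finger regulator of smooth muscle development (69.3%, 88.8%, 81.3% and 71.0%). Wild-type non-infarcted tissue, whose BGT library stood apart, was lowest in all 4. Over the other 3 samples Zfp407 (mean 74.03%) and Tas1r2 (76.8%) were again the lowest, followed by Camta1 (77.9%), ahead of Actrt2 (80.4%) and Tshz3 (80.4%). The unmodified indices of the first 4 named were 48.3% to 102%. Highest in BGT after Cela3a were the clusters near Otp, a hypothalamic homeobox gene (224%, 198%, 177% and 176%), Opcml (185%, 153%, 195% and 170%) and Cdh22, a cadherin gene (165%, 155%, 184% and 183%). The Cdh22 cluster had a middling unmodified index of 97.7% to 110%, so high BGT did not need high HpaII.

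The clusters with 7 member sites were those near Mfsd13a and Tspear. The Mfsd13a cluster begins 52 bp from 2310034G01Rik (chr19:46349040-46349625), whose promoter was shown above, and had 155%, 173%, 150% and 145%. The Tspear cluster had 210%, 258%, 195% and 207%. Another with many sites, near Gm20599, had 126%, 124%, 115% and 125%. The cluster at 5430416N02Rik, 12.1 kb from Lin54, a gene of the cell-cycle repressor complex DREAM, had 165%, 140%, 157% and 137%, and the cluster at Gm20052, 69 kb from the homeobox gene Msx1, had 231%, 213%, 190% and 220%. Of the promoters shown, the 3 more CpG-rich ones had clusters above 130% in every sample, and the AT-rich Gm31096 promoter had one at 20.1% to 60.2%. The Gm46567 promoter, not shown, was also CpG-poor (ratio 0.31, 52.0% GC). Its cluster, near Opa1, was nonetheless above 130% in non-infarcted tissue of both genotypes, so a low CpG ratio did not always go with a low index.

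The clusters farthest from genes were near Spred2, an inhibitor of Ras signalling (393 kb), Slc30a10, a manganese exporter (298 kb), 4930591A17Rik (252 kb), Ajap1, a junction-associated protein gene, and Noct (both 233 kb). Spred2 had 115%, 138%, 103% and 136%, and Slc30a10 49.8%, 48.7%, 59.3% and 58.1%. At Spred2, 1 site with an MspI signal of 0.777 to 1.22 had HpaII signals of 106 to 128, so ratios of single sites can be extreme. Sums over a cluster were used, but they do not remove such a site. It still supplied 106 to 128 of a summed HpaII signal of 355 to 418 in this cluster.

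MicroRNA genes lay beside several of the windows searched, though none lay inside one. The autosome left out of the promoter search is not covered here either. The sequences below are mature microRNAs from RefSeq (GRCm38.p6) whose genes lie within 10 kb of a window, shown because these genes are known for roles in muscle, growth and inflammation. For Mir1a-1 the arm shown is the 5p arm, not the 3p arm through which the muscle role is known. Capitals mark the seed, bases 2 to 8.
mmu-miR-1a-1-5p: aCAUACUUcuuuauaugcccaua
mmu-miR-17-5p: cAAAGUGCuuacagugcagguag
mmu-miR-20a-5p: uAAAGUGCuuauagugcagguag
mmu-miR-19a-3p: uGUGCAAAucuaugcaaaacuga
mmu-miR-19b-3p: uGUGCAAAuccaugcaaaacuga
mmu-miR-146b-5p: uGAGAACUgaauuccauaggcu

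miR-17-5p and miR-20a-5p share a seed, as do miR-19a-3p and miR-19b-3p. All of these come from the Mir17 to Mir92-1 cluster, which promotes cell growth. The nearest edge of its window lay 1.19 kb from Mir17 (chr14:115041514-115042486), and the unmodified indices were 223%, 223%, 234% and 212%. Mir146b, a brake on inflammatory signalling, lay 6170 bp from the Mfsd13a cluster. The window 2.1 kb from Mir193b had 230%, 228%, 198% and 199%, and the one near Mir23a had 258%, 210%, 251% and 259%. Each of these was above the median window in all 4 samples.

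Mir1a-1 and Mir133a-2 are processed from the lncRNA Mir1a-1hg and are muscle microRNAs that are abundant in cardiomyocytes. A cluster of 5 member sites lay inside Mir1a-1hg between the pair (chr2:180392867-180393357), 57.4 kb from Gata5, a cardiac transcription factor gene. Its unmodified index was 150%, 116%, 136% and 134%, and its BGT index 133%, 132%, 120% and 118%. Summed HpaII signal was 521, 373, 530 and 504, with MspI signals of 348, 321, 390 and 377. Wild-type infarcted tissue was the low sample in HpaII. Against wild-type non-infarcted tissue its HpaII signal was lower at all 5 member sites and at 12 of the 14 other listed sites inside the gene or within 1 kb of it. Its HpaII total over all shared sites was lower too, at 35746832 against 42013779. The share of all sites that were lower was not taken, so these counts say nothing particular to this gene.

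With its 2 further listed sites, which had 47.7%, 37.6%, 58.9% and 50.7%, the window of this cluster had 110%, 88.4%, 110% and 109%. The 12 sites of the gene outside the window had 165%, 177%, 190% and 196%. The index was thus lower in wild-type infarcted than non-infarcted tissue inside the window and higher outside it. The whole library of that sample also had the lowest HpaII total of the 4, at 35746832 against 41578401 to 42346248. Marker genes of the main cell types of the heart are given beside this. For cardiomyocyte genes the median gene-body unmodified index of 14 of the 22 genes listed, those with at least 10 sites, was 114%, 92.5%, 116% and 102%, lower with infarction at 12 of 14 genes in both genotypes, against 32.6% of all 10025 genes with as many sites in wild type and 41.8% in null mice. Leukocyte genes (11 of 22 measured) had 93.2%, 101%, 98.5% and 99.3%, with 2 and 4 of 11 lower. Endothelial genes (11 of 12) had 132%, 121%, 133% and 124%, with 9 and 7 of 11 lower, and fibroblast genes (6 of 12) had 99.4%, 111%, 102% and 114%, with 2 of 6 lower in both genotypes. The part of cell composition in any result here was not tested, and in bulk tissue fewer cells of a type and a change in each cell cannot be told apart.

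**Figure D4:**
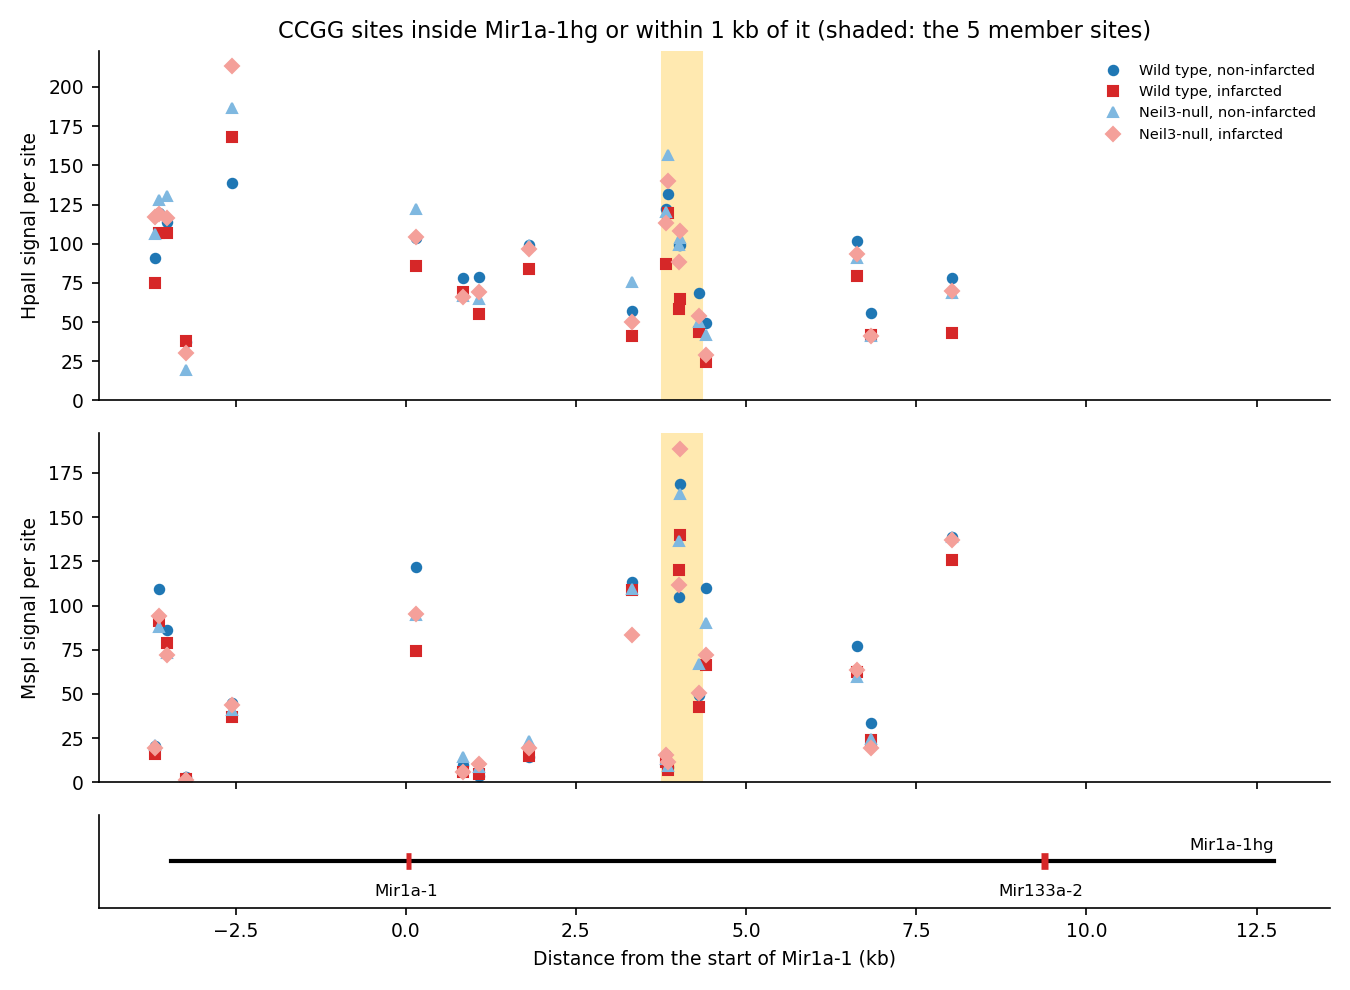
HpaII signal (top) and MspI signal (middle) per CCGG site by distance in kb from the start of Mir1a-1, with 1 point per site and sample, and the genes drawn to scale (bottom). At the 5 member sites (shaded) wild-type infarcted tissue had summed HpaII of 373, against 504 to 530 in the other 3 samples. The HpaII total of that sample over all shared sites was also the lowest, at 35746832 against 41578401 to 42346248.

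Infarction was compared within each genotype, and the 2 comparisons share no sample. In wild-type hearts 2 of 67 clusters had an unmodified index more than 1.5-fold higher in infarcted tissue and 0 lower, against 0.946% higher and 1.06% lower of all 846 dense clusters (2.01% in either direction). In null hearts 0 were higher and 1 lower, against 0.355% and 0.236%. No cluster passed 1.5-fold the same way in both genotypes, and none of the 846 did (0.0% in each direction). With the median of site ratios in place of summed signal, 1 of the 67 was higher in both. The counts under that setting were 7 higher and 2 lower in wild type and 4 higher and 5 lower in null tissue. The median change of the 67 clusters was 0.06 in wild type and -0.03 in null on the log2 scale, with SDs between clusters of 0.31 and 0.21. Medians for all 846 clusters were -0.00 and -0.03.

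The 2 wild-type rises were the clusters near 4930591A17Rik and Fbxw7. The cluster near 4930591A17Rik (chr2:179162555-179162896) went from 66.9% to 159% in wild type, 2.37-fold, while the null samples had 153% and 142%. HpaII signal was 162, 146, 151 and 149, and MspI signal was 242 in wild-type non-infarcted tissue against 92.1 to 105 in the others. The wild-type non-infarcted sample alone stood apart here. Its BGT index did too, at 43.2% against 100% to 110%, which rests on the same MspI value.

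At Fbxw7, which encodes a ubiquitin ligase subunit that targets Notch and Myc for degradation, the cluster lies 144 kb from the gene beside Gm31096 (chr3:85122721-85123058). Its index was 20.1%, 44.1%, 60.2% and 33.9%. It was 2.19-fold higher with infarction in wild type and lower in null tissue (0.564-fold). HpaII signals were 52.1, 76.0, 92.4 and 63.9, and MspI signals 259, 172, 154 and 188. It was the single cluster of 846 to pass 1.5-fold in opposite ways in the 2 genotypes (0.118%). The Gm31096 promoter shown above holds 2 of its 5 sites. At one of them, position 85122730, the ratio was 6.88%, 33.8%, 175% and 18.3%, the widest range of the 5.

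Smaller differences in wild type were a rise near Cggbp1, which encodes a CGG-repeat binding protein (179% to 266%, 1.49-fold), and falls near Noct, a circadian-regulated phosphatase gene (102% to 68.0%, 0.669-fold), and Mn1, a transcriptional coregulator gene (54.0% to 39.6%, 0.733-fold). In null tissue Ajap1 went from 89.0% to 127% (1.43-fold), Trabd2b, a Wnt antagonist gene, from 249% to 191% (0.764-fold) and Noct from 93.4% to 74.3% (0.796-fold). Noct was lower in infarcted tissue of both genotypes, without passing 1.5-fold in either.

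An additive limma fit to genotype and infarct, which leaves 1 residual degree of freedom, called at a Benjamini-Hochberg adjusted p under 0.05 across the 846 dense clusters 1 of the 67 higher with infarction and 0 lower (0.355% and 0.118% of all clusters). The call was the cluster near 4930591A17Rik, with a log2 change of 0.57 ± 0.12 (SE), adjusted p = 0.00487. It rests on the wild-type non-infarcted value described above: the infarct change was 2.37-fold in wild type and a fall from 153% to 142% in null tissue. The SE draws on the variance of all dense clusters, so it does not show how far apart these changes lie. The call was lost with the median of site ratios in place of summed signal. Before adjustment 10 of 67 clusters had a limma p below 0.05. The share over all 846 clusters was not taken, so this count says nothing particular to far clusters.

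Over the 530 far windows, 9 were higher and 9 lower past 1.5-fold in wild-type infarcted tissue, against 1.2% and 1.01% of all dense windows (2.21% in either direction), and 8 passed in null tissue, against 0.787%. In 2 windows the direction was the same in both genotypes. Over all 4575 dense windows 5 were higher and 4 lower past 1.5-fold in both (0.109% and 0.0874%), of which 1 and 1 were far from genes. The window near Wif1, which encodes a secreted Wnt inhibitor, lies in the lncRNA gene Gm10741 (chr10:121160189-121160909, 5 sites, 2 of them members). Its unmodified index was 89.6% and 86.6% in non-infarcted tissue and 157% and 132% in infarcted tissue, wild type first. HpaII signals were 194 and 160 against 245 and 278, higher in infarcted tissue of both genotypes. The part of MspI in the index changes was not assessed. Since the window was picked for passing 1.5-fold in both genotypes, the gap between its groups is no separate support. The limma fit over windows gave a log2 change of 0.71 ± 0.13 (SE), adjusted p = 0.00263, the 1 far window called of 8 called in all.

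The window near Igsf21, an immunoglobulin superfamily gene, lies in the lncRNA gene Gm9867 (chr4:140321044-140321670, 5 sites, 2 of them members). It fell from 35.8% to 20.5% in wild type and from 46.7% to 26.7% in null tissue, 0.572-fold in each, and HpaII signal went from 96.5 to 48.8 and from 136 to 69.3. Its limma log2 change was -0.81 ± 0.20 (SE), adjusted p = 0.0726, above the threshold of 0.05. Both windows were chosen by the rule that the 2 comparisons pass 1.5-fold together.

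In BGT, 4 clusters were higher and 1 lower past 1.5-fold in wild-type infarcted tissue, against 2.72% and 3.07% of all clusters (5.79% in either direction). These are comparisons with the BGT library that stood apart. Centred on the median of all dense clusters they were 7 higher and 0 lower, and with the median of site ratios 6 and 5. In null tissue none passed in either direction, against 0.0% and 0.473%. The wild-type rises were near 4930591A17Rik (2.54-fold), Sdk2, an adhesion gene of the retina (69.2% to 115%, 1.66-fold), Mn1 (71.9% to 118%, 1.64-fold) and Emid1 (83.7% to 128%, 1.53-fold), and the fall was near Slc6a11, a GABA transporter gene (158% to 104%, 0.655-fold). In null tissue Emid1 went from 86.9% to 108% (1.25-fold), Sdk2 from 112% to 117% and Mn1 from 127.7% to 128.2%. The limma fit called 0 clusters, and 6 of 67 had an unadjusted p below 0.05, a count not set against all clusters.

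Over windows, the 1 far window lower in BGT past 1.5-fold in both genotypes lay in A330001L22Rik beside Zfp503, a zinc finger gene (chr14:21994397-21995123). It went from 138%, in the sample whose BGT library stood apart, to 89.5% in wild type and from 136% to 89.0% in null tissue, against 0.0874% of all windows. Its unmodified index was 210%, 293%, 220% and 259%, higher with infarction in both. The limma adjusted p for BGT was 0.0563, above the threshold.

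**Figure D5:**
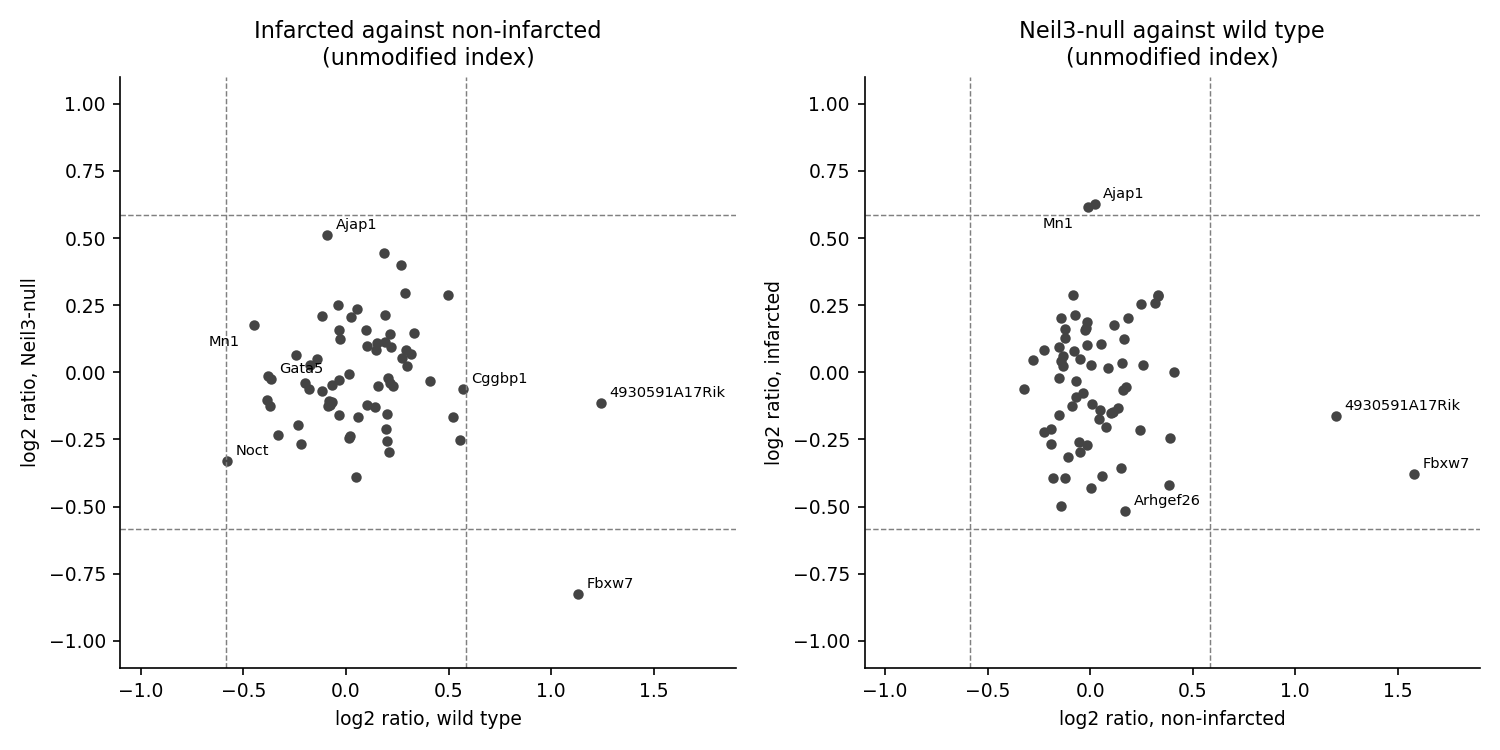
Log2 ratios of the unmodified index for the 67 clusters: infarcted over non-infarcted in wild type against null (left) and null over wild type in non-infarcted against infarcted tissue (right), with dashed lines at 1.5-fold. Points crowd around 0, and the cluster near Fbxw7 sits alone, at 2.19-fold and 0.564-fold on the left.

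Genotype was compared within each tissue, again in 2 comparisons that share no sample; each shares its samples with the infarct comparisons. In non-infarcted tissue 2 clusters were higher in null and 0 lower past 1.5-fold, against 0.473% and 0.355% of all clusters. They were the same 2 near Fbxw7 (20.1% to 60.2%, 2.99-fold) and 4930591A17Rik (66.9% to 153%, 2.29-fold), which use the same wild-type non-infarcted sample. In infarcted tissue 2 were higher and 0 lower, against 1.3% and 0.236%: Ajap1 (82.3% to 127%, 1.54-fold) and Mn1 (39.6% to 60.7%, 1.53-fold). None of the 67, and none of the 846, passed the same way in both tissues (0.0% in each direction). With the median of site ratios 1 of the 67 was higher in both, and the counts were 3 higher and 2 lower in non-infarcted and 3 higher and 6 lower in infarcted tissue.

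The largest falls stayed under the fold limit. In non-infarcted tissue they were near Nphp4, a cilium gene (63.8% to 51.1%, 0.801-fold), Msx1 (231% to 190%, 0.824-fold) and Opa1, a gene for mitochondrial fusion (157% to 134%, 0.855-fold). In infarcted tissue they were near Arhgef26 (30.2% to 21.1%, 0.698-fold), 1700021F07Rik (164% to 116%, 0.708-fold) and Trabd2b (257% to 191%, 0.742-fold). None of these 6 was among the 3 largest falls in the other tissue.

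The limma fit called 1 of 67 clusters higher in null (0.118% of all clusters) and 0 lower, again the cluster near 4930591A17Rik, with a log2 change of 0.52 ± 0.12 (SE), adjusted p = 0.0278. The same wild-type non-infarcted value underlies it, and the change was 2.29-fold in non-infarcted tissue and a fall from 159% to 142% in infarcted tissue. Here too the SE draws on the variance of all dense clusters. The call was lost with the median of site ratios. At windows 0 were called far from genes, and 1 of 4575 in all (0.0219%). An unadjusted p below 0.05 was reached by 9 of 67 clusters, a count not set against all clusters.

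In BGT, 5 clusters were higher and 0 lower in non-infarcted null tissue, against 2.84% and 0.236% of all clusters, in the comparison that uses the unusual library. With the median of site ratios they were 5 and 4. Sdk2 (69.2% to 112%, 1.61-fold), Mn1 (71.9% to 128%, 1.78-fold) and Prox1 (72.8% to 116%, 1.59-fold) were among them, with Fbxw7 (63.1% to 108%, 1.72-fold) and 4930591A17Rik (2.39-fold). In infarcted tissue 1 was higher, Slc6a11 (104% to 159%, 1.54-fold), and 0 lower, against 0.591% and 0.236%, with none left after centring on the median. No cluster passed in both tissues (0.0%), and the limma fit called 0. Of the 67, 4 had an unadjusted p below 0.05, again not set against all clusters.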

How the data were processed

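DNA of 4 left ventricle samples, 1 per group, had been read as 3 libraries each (HpaII, BGT, MspI). The authors deposited, per sample, a signal per CCGG site and library in mm10 coordinates, the build named in the submitters' processing notes. The sources used here do not give its normalization or the tag depth behind it, so no counting error can be given. Members were found with 20665 protein-coding RefSeq genes. Cluster indices are ratios of summed signal over member sites, for clusters of at least 5 member sites and a mean MspI signal of at least 10. Windows were added after seeing the data.

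Class and group differences were tested by an exact two-sided sign-flip permutation test over samples. Infarct and genotype were compared by a 1.5-fold rule and by limma 3.58.1 (R 4.3.3) on log2 indices, additive, 1 residual degree of freedom, Benjamini-Hochberg adjustment over all dense clusters at 0.05. Scripts used Python 3.11.15, numpy 2.4.6, pandas 2.3.3 and scipy 1.17.1, and the fit was tested on simulated data. There were 9 planned and 2 added alternatives. Named clusters are the highest, lowest, best filled and farthest, and those with the largest changes per comparison. Named lncRNA, imprinted, microRNA and transcription factor windows were chosen after values were seen or from lists. Members and lists were chosen with earlier results of these data known. The permutation p-values measure only the spread between these samples. The limma SEs and p-values also draw on the variance of all dense clusters, or of all dense windows where windows were fitted.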

Additional observations from a re-analysis of the deposited data

Results flagged for a closer look

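The cluster near Fbxw7 moved in opposite directions with infarction in the 2 genotypes: its unmodified index changed by 1.13 on the log2 scale in wild type (20.1% to 44.1%) and by -0.83 in Neil3-null tissue (60.2% to 33.9%). With 1 sample per group the difference between the genotypes was not tested.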

How the results depend on the processing

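Of 165 recomputed values over 20 results, 130 kept their direction and size class, 32 moved and 3 changed sign. The far minus gene-body difference turned to -0.708 with a minimum signal of 20 (exact permutation p = 0.75), to -9.71 for members over 20 kb away (exact p = 0.13) and to -1.20 without chromosomes 1 and 8 (exact p = 0.75). The median unmodified index was 125.09% and BGT 118.02% with equal library totals, 144.28% and 122.69% with the median of site ratios, 120.64% (unmodified) over 20 kb, and 123.29% and 111.7% for whole windows, an alternative chosen after seeing the data. With the median of site ratios, clusters past 1.5-fold numbered 9 (7 higher), 9 (4 higher), 5 (3 higher) and 9 (3 higher) in the unmodified index (infarct in wild type and null, genotype in non-infarcted and infarcted tissue) and 11 (6 higher), 4 (0 higher), 9 (5 higher) and 5 (5 higher) in BGT. There 1 passed the same way in both genotypes and 1 in both tissues, and limma called 0 for infarct and 0 for genotype. With whole windows the numbers were 18 (9 higher), 8 (3), 11 (6) and 13 (8), and 40 (24), 2 (0), 35 (24) and 3 (2) in BGT, 2 passed the same way in both genotypes (1 in BGT), and limma called 0 for genotype. Centring on the median gave 7 higher and 0 lower in BGT for infarct in wild type and left 0 in BGT for genotype in infarcted tissue, and limma without a trend called 2 for genotype. The cause was not tested. At least 8 sites per window left no far cluster, so it gave no value. No analysis paired by animal was possible, because each group has 1 sample and the sources used here do not say which samples share a heart. Tag depth is unknown, so its effect was not assessed.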
